A study of Homo sapiens with 12 samples.

Results

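The S100 calcium-binding proteins are described here by 10 genes, S100P, S100A4, S100A6, S100A8, S100A9, S100A10, S100A11, S100A13, S100A14 and S100A16, which were chosen by their symbols among the 60660 genes of each table. The libraries were made from mRNA of 2 human prostate cancer cell lines, LNCaP and 22Rv1. Each line was transfected with a negative control oligo, NC-mimic, or with piR-4447944 mimic, a synthetic copy of a PIWI-interacting RNA, and all 4 groups were deprived of androgen in medium holding CS-FBS, serum stripped of steroids with charcoal, at 10%. There were 3 libraries in each group, LNCaP NC-mimic, LNCaP piR-4447944 mimic, 22Rv1 NC-mimic and 22Rv1 piR-4447944 mimic. The mimic is an excess of added oligo rather than the natural RNA, each line stands for 1 tumour, and the labels do not say whether the 3 libraries of a group came from separate cultures, so p-values measure the spread between these libraries, which may be technical. S100P was on the list because it was higher with the mimic over both lines in these same data. Values of the mimic against NC-mimic are therefore given as a description without a test, and tests are given for the difference between the lines and for the difference of the mimic effect between the lines.

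S100 proteins are small EF-hand proteins that bind calcium, mostly work as dimers, and then attach to partner proteins such as annexins and cytoskeletal proteins. Some members are also released from cells and act on receptors such as AGER, known as RAGE. Most S100A genes lie in a cluster on the long arm of chromosome 1, and S100P lies on chromosome 4. In prostate and other epithelial tumours, several members have been studied for their part in migration and invasion.

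Libraries held 12161091 to 22179601 expected counts each. No 2 libraries held identical values, and replicates differed by a chi-square per gene of between 3.43 and 15.0 in LNCaP and between 7.23 and 106 in 22Rv1, where every pair with replicate 3 was at 37.7 or more. Both 22Rv1 libraries numbered 3 thus stood apart from the others of their groups, and results that rest on them are given with and without them. All 7 prostate luminal markers given here (KLK2, KLK3, HOXB13, FOLH1, TMPRSS2, KRT8 and KRT18) had at least 1 TPM (a transcript level scaled to transcript length and to the library) in every library. Their summed level was 4564 to 5068 TPM in LNCaP and 1254 to 1964 TPM in 22Rv1. None of 10 myeloid and none of 8 squamous markers reached 1 TPM in all libraries of any group, and their summed levels were 0.87 to 2.74 TPM and 0.0 to 1.05 TPM. In these bulk libraries, fewer cells with a transcript and less transcript per cell cannot be told apart.

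Of the 10 genes, 5 made up nearly all S100 transcripts, namely S100A11, S100A10, S100A6, S100A13 and S100P. The summed level of the 10 genes was 487 to 556 TPM in LNCaP and 1132 to 1783 TPM in 22Rv1, with no overlap between the lines. S100A11 alone gave 79.8 to 86.5% of that sum in LNCaP and 31.2 to 44.4% in 22Rv1. In LNCaP NC-mimic the order was S100A11 at 464 ± 6.62 TPM (SD, n = 3), S100A13 at 48.0 ± 6.98 TPM, S100P at 30.1 ± 3.94 TPM and S100A4 at 2.82 ± 0.27 TPM, and the ranges of neighbours in this order did not overlap. Below these, S100A14, S100A9 and S100A16 had means of 0.93 TPM or less with overlapping ranges, and S100A10, S100A6 and S100A8 were at 0. In LNCaP with piR-4447944 mimic the order of the first 4 was the same, with overlapping ranges of S100A13 and S100P and of S100A4 and S100A14. In 22Rv1 NC-mimic S100A11 was followed by S100A10, S100A6, S100A13 and S100P, and only the last pair of these neighbours overlapped. In 22Rv1 with piR-4447944 mimic S100P stood above S100A13 by its mean, but the ranges of all neighbours among these 5 genes overlapped.

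**Figure D1:**
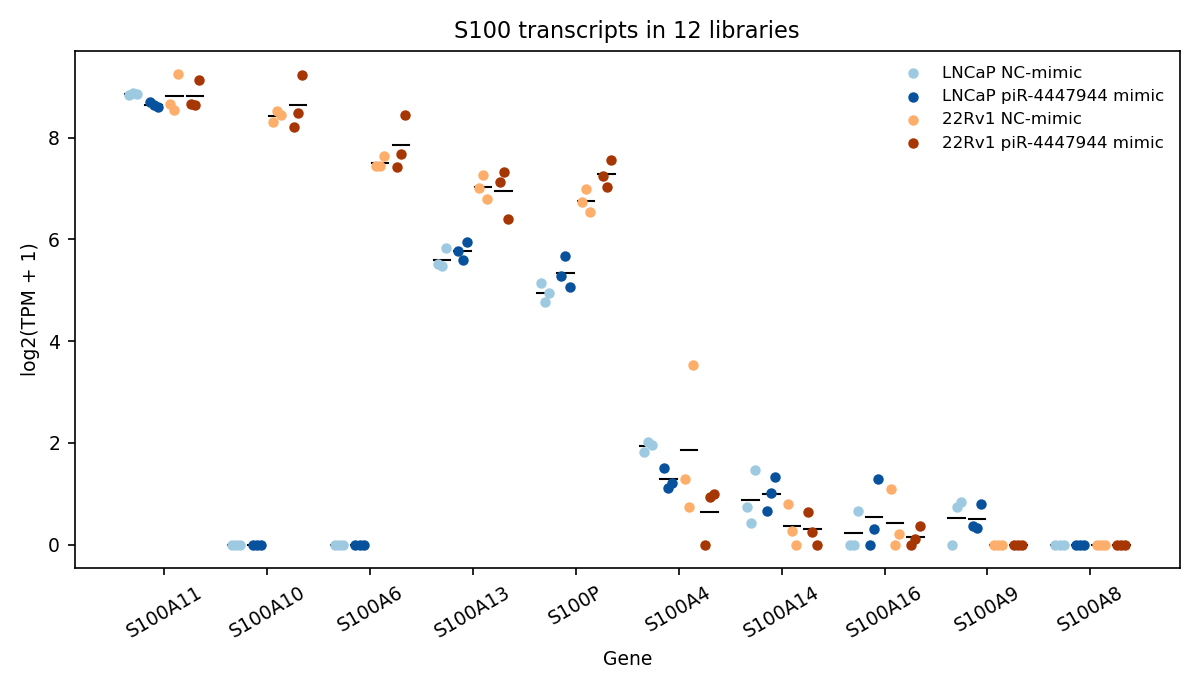
Level of each of the 10 S100 genes in each of the 12 libraries, as log2(TPM + 1), with 1 point per library and a bar at the mean of the 3 points of a group. S100A10 and S100A6 lie at 0 in all 6 LNCaP libraries and at 171 TPM or more in all 6 22Rv1 libraries, while S100A11 is high in both lines.

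S100A10, the partner of annexin A2 in a membrane-bound complex that also takes part in plasminogen activation, and S100A6, known as calcyclin, were at 0 in LNCaP and among the highest S100 transcripts in 22Rv1. Their upstream windows are shown because these 2 genes were at 0 in LNCaP and high in 22Rv1, and that of S100A11 because it is the neighbour of S100A10 with counts in both lines. S100P is shown as the member outside the chromosome 1 cluster. Each window holds 250 bases before and 50 after a RefSeq transcript start (GRCh38.p14), written 5′ to 3′ in the direction of the gene, with each CG in capitals. CG reads the same on both strands. The windows are chr1:151993810-151994109 (minus strand) for S100A10, chr1:153535942-153536241 (minus strand) for S100A6, chr1:152036955-152037254 (minus strand) for S100A11 and chr4:6693628-6693927 (plus strand) for S100P.
S100A10: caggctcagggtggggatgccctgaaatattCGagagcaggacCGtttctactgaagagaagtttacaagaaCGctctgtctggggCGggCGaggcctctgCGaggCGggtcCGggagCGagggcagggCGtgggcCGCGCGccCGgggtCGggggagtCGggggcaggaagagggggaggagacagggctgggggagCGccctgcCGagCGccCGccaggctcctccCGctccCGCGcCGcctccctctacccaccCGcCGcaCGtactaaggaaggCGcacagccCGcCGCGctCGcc
S100A6: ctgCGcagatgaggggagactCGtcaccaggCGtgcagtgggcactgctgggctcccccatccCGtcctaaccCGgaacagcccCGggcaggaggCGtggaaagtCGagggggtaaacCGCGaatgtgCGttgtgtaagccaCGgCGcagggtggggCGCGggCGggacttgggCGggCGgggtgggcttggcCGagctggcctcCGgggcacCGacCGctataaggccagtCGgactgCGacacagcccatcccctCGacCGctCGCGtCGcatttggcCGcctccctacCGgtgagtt
S100A11: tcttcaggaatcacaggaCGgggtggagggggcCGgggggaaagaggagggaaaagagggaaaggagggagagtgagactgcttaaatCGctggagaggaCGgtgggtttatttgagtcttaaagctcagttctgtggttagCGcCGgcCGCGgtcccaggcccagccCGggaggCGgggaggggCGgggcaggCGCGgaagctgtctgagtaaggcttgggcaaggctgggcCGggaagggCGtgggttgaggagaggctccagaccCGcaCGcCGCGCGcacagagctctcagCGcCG
S100P: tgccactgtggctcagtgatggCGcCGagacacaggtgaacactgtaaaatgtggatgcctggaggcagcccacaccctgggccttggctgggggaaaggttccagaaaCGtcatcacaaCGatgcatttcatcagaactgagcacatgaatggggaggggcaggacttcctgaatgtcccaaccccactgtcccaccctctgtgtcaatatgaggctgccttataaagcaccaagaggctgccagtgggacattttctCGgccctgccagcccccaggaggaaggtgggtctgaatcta
The S100A10 window holds 32 CG and that of S100A6 holds 31, which 18.9% and 20.7% of all 35116 windows of this length equal or exceed. The S100A11 window holds 22 CG (37.7% of windows hold as many or more) and the S100P window 5 (70.4%), and the median over all windows was 14. All 10 genes matched RefSeq by symbol, with 15 windows in all, and the windows of S100A8, S100A9, S100A14, S100A16 and S100A4 hold between 2 and 8 CG, and the 3 windows of S100A13 hold 11, 12 and 19. The number of CG is a property of the reference sequence, and methylation was not measured in these libraries.

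S100A10 (GENCODE v44, hg38, chr1:151982915-151993859, minus strand) had no count in any of the 6 LNCaP libraries, which hold 104001511 expected counts in all. In 22Rv1 NC-mimic its level was 317, 368 and 351 TPM in replicates 1 to 3, and with piR-4447944 mimic it was 296, 358 and 599 TPM. The lines did not overlap, and the library with the highest value was replicate 3 with the mimic. The counts behind these values were 1331 to 2915 per library. Against a floor of 3 counts over the 3 LNCaP libraries of an arm, S100A10 was at least 1997-fold higher in 22Rv1 with NC-mimic and at least 2103-fold higher with piR-4447944 mimic. Without replicate 3 in either line these bounds were 1384-fold and 1063-fold. Bounds set against the floor cover counting error only.

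S100A6 (chr1:153534599-153536244, minus strand), which binds among others the ubiquitin ligase adaptor CACYBP, likewise had no count in the 6 LNCaP libraries, so that at this depth a level above 0.0288 CPM (counts per 1000000 counts of the library) would have given 3 counts. In 22Rv1 NC-mimic it reached 174, 173 and 198 TPM, and with piR-4447944 mimic 171, 204 and 348 TPM. The mimic library numbered 3 was again the highest. S100A6 was at least 437-fold higher in 22Rv1 with NC-mimic and at least 508-fold higher with the mimic, and without replicate 3 at least 296-fold and 248-fold higher. An uncharacterised gene on the other strand shares 37 exon bases with S100A6, and the strand setting of the counting is not given in the sources used here.

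S100P (chr4:6693878-6697170, plus strand), which is secreted by many carcinomas and binds ezrin and RAGE, was detected in all libraries and was higher in 22Rv1. In LNCaP NC-mimic its level was 34.2, 26.3 and 29.8 TPM, and in 22Rv1 NC-mimic it was 106, 126 and 91.6 TPM. With piR-4447944 mimic the levels were 38.0, 50.4 and 32.7 TPM in LNCaP and 151, 130 and 188 TPM in 22Rv1. Every 22Rv1 library lay above every LNCaP library. On expected counts the difference of 22Rv1 from LNCaP was 1.90 ± 0.22 on the log2 scale (SE; edgeR adjusted p = 0.00016), a 3.74-fold difference, with NC-mimic and 1.95 ± 0.25 (edgeR adjusted p = 0.00089), or 3.86-fold, in the separate libraries with the mimic.

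S100A13 (chr1:153618787-153631360, minus strand), which takes part in the non-classical release of FGF1 from cells, showed the same direction. Its level was 44.7, 43.3 and 56.1 TPM in LNCaP NC-mimic and 128, 153 and 110 TPM in 22Rv1 NC-mimic. With the mimic it was 53.6, 47.7 and 60.6 TPM in LNCaP and 139, 159 and 83.6 TPM in 22Rv1. The lines did not overlap in either arm, and the lowest 22Rv1 value was replicate 3 with the mimic. The difference of 22Rv1 from LNCaP was 1.49 ± 0.20 (log2, SE; edgeR adjusted p = 0.0004) with NC-mimic and 1.27 ± 0.21 (edgeR adjusted p = 0.0025) with the mimic. S100A13 shares 235 exon bases with S100A1 on the opposite strand and 536 with an uncharacterised gene on its own strand, so its counts could be split with these genes.

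S100A11 (chr1:152032506-152047907, minus strand), a partner of annexin A1 that is found in most epithelia, was the highest of the 10 genes by its mean in each group and did not separate the lines. Its level was 457, 471 and 464 TPM in LNCaP NC-mimic, 416, 399 and 388 TPM in LNCaP with the mimic, 404, 373 and 608 TPM in 22Rv1 NC-mimic, and 403, 399 and 563 TPM in 22Rv1 with the mimic. The 2 highest libraries were both 22Rv1 replicate 3, and the ranges of the lines overlapped in both arms. The difference of 22Rv1 from LNCaP was 0.05 on the log2 scale with NC-mimic (95% interval -0.35 to 0.46; edgeR adjusted p = 0.82) and 0.18 with the mimic (-0.21 to 0.58; edgeR adjusted p = 0.40). Without 22Rv1 replicate 3 the values were -0.20 (edgeR adjusted p = 0.063) and -0.03 (edgeR adjusted p = 0.68), so the sign rested on that library. Its annotated pseudogenes had no counts.

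S100A4 (chr1:153543613-153550136, minus strand), also called metastasin and known to bind non-muscle myosin, was low in all libraries. LNCaP NC-mimic had 12, 15 and 15 counts and LNCaP with the mimic had 8, 6 and 7. In 22Rv1 NC-mimic the counts were 6, 2 and 26, and with the mimic they were 0, 3 and 3. The 26 counts of 22Rv1 NC-mimic replicate 3 (10.6 TPM) were the highest value and set the group mean. With this library the difference of 22Rv1 from LNCaP with NC-mimic was 0.05 ± 0.92 (log2, SE; edgeR adjusted p = 0.97), and without it -1.85. Without it S100A4 passed the filter on low counts through LNCaP alone, so no p-value is given for that fit. With the mimic S100A4 did not pass the filter on low counts.

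The other 4 genes were at or near the limit of detection. S100A14, an epithelial member, had 4 to 19 counts per library in LNCaP and 0 to 5 in 22Rv1, and S100A16 had 0 to 17 and 0 to 13. In LNCaP the highest counts of these neighbouring genes were in replicate 3 of each arm, with 17 and 19 for S100A14 and 5 and 17 for S100A16. S100A9, which with S100A8 forms calprotectin of neutrophils and monocytes, had 11 counts over the 6 LNCaP libraries and none over the 6 22Rv1 libraries. In LNCaP S100A9 had 6 counts with NC-mimic and 5 with the mimic. In CPM these were 1.8-fold and 1.6-fold of the floor of 3 counts in 22Rv1. These ratios leave out the counting error of the 6 and 5 counts, so no minimum difference between the lines is given. S100A8 had no count in 12 libraries, which allows a level of up to 0.0288 CPM in LNCaP and 0.0308 CPM in 22Rv1. The 4 genes did not pass the filter on low counts in either comparison of the lines.

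Counted over the 10 genes, 6 passed the filter with NC-mimic and 5 with the mimic, and 4 (S100P, S100A13, S100A6 and S100A10) were called higher in 22Rv1 in both comparisons at an adjusted p under 0.05 and none lower. Among all genes, 58.4% of 17497 were called in either direction with NC-mimic and 30.9% were called higher in 22Rv1. With the mimic 52.4% of 17283 were called and 28.2% were called higher. S100A6 and S100A10 passed the filter through 22Rv1 alone and so had to differ, so the count adds nothing to the values of each gene.

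Along chromosome 1 S100A10 and S100A6, with counts in 22Rv1 only, lay beside genes with counts in both lines or in neither. From S100A10 to the end of S100A1 (chr1:151982915-153632039) the annotation has 63 protein-coding genes, most of them of the epidermal differentiation complex. Of these, 52 reached 1 TPM in no library, 3 reached it in all 6 22Rv1 libraries and in none of LNCaP (S100A10, S100A6 and FLG, the filaggrin gene, which was named after its values were seen), 2 (S100A11 and S100A13) in all libraries of both lines, and 0 in all LNCaP libraries and none of 22Rv1. FLG lay between HRNR and FLG2, which also had more counts in 22Rv1. The pooled counts in LNCaP and 22Rv1 were 5 and 601 for HRNR, 4 and 3169 for FLG, and 0 and 76 for FLG2. These differences were not tested. S100A10 and S100A11 are the first 2 genes of this interval. The nearest S100 neighbours of S100A6, S100A5 and S100A4, had no count and at most 26 counts.

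**Figure D2:**
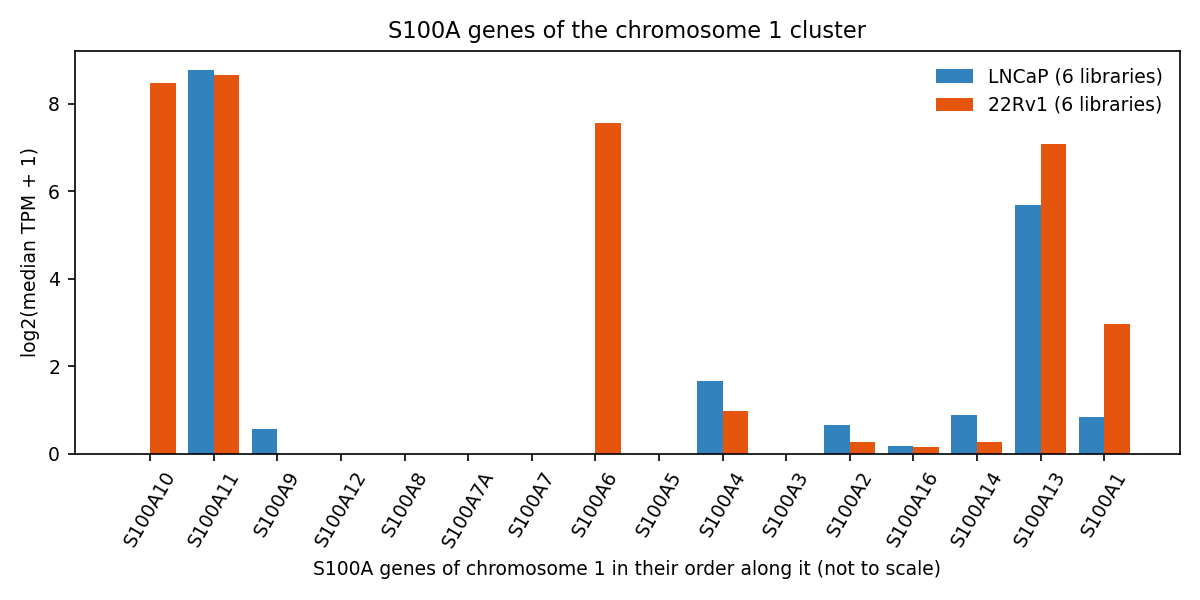
Median level over 6 libraries of each line, as log2(median TPM + 1), for the S100A genes of chromosome 1 in their order along it, members and other S100A genes. S100A10 and S100A6 have bars in 22Rv1 only, S100A11 has equal bars within the spread of its libraries, and S100A13 and S100A1 are higher in 22Rv1. The gap of the S100A1 bars also reflects an effective length that differed between the lines.

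Of 11 other S100 genes (S100A1, S100A2, S100A3, S100A5, S100A7, S100A7A, S100A7L2, S100A12, S100B, S100G and S100Z), 7 had no count in 12 libraries and 1, S100A1, passed the filter. S100A1, a member best known in muscle, had 146 counts over 6 LNCaP and 312 over 6 22Rv1 libraries. It was higher in 22Rv1 with NC-mimic by 1.32 ± 0.35 (log2, SE; edgeR adjusted p = 0.012; 0.057 without LNCaP NC-mimic replicate 1). With the mimic the difference was 0.96 ± 0.39 (edgeR adjusted p = 0.076; 0.018 without 22Rv1 mimic replicate 3). Its exons overlap those of S100A13. The median of S100A1 was 0.80 TPM in LNCaP and 6.84 TPM in 22Rv1, a wider gap than the 2.49-fold on counts with NC-mimic. The effective length of S100A1, by which TPM is scaled, was 1214 to 2358 bases in LNCaP libraries and 409 to 754 bases in 22Rv1 libraries.

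Among 13 partners and targets of S100 proteins, 11 were tested in each comparison of the lines. With NC-mimic 6 were called higher in 22Rv1 and 3 lower, and with the mimic 4 higher and 2 lower, at a median log2 difference of 0.31 and 0.28 against 0.01 and 0.04 over all genes tested, of which 58.4% and 52.4% were called. The higher genes include ANXA1 and ANXA2 in both comparisons. Both would not have passed the filter on low counts without 22Rv1, so nothing is read from their calls. Among 5 receptors 3 were tested, and 1, ALCAM, was called higher in both. AGER (RAGE) was at 2.84 to 7.93 TPM in the 12 libraries and BSG, a receptor of S100A9, at 469 to 646 TPM, and neither was called. TLR4 was at 0.04 TPM or less.

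ANXA2, the partner of S100A10, was lower in LNCaP as well. Its level was 1.52, 0.23 and 0.66 TPM in LNCaP NC-mimic and 4.15, 5.63 and 15.5 TPM in 22Rv1 NC-mimic. With the mimic it was 0.20, 0.67 and 0.31 TPM in LNCaP and 7.95, 4.38 and 46.9 TPM in 22Rv1. The lines did not overlap, and 22Rv1 replicate 3 was the highest in both arms. The difference of 22Rv1 from LNCaP was 4.03 ± 0.60 (log2, SE) with NC-mimic and 6.18 ± 1.24 with the mimic, and it was 3.34 and 4.21 without 22Rv1 replicate 3. ANXA2 had 21 pooled counts in LNCaP NC-mimic and 11 in LNCaP with the mimic. It passed the filter on low counts through 22Rv1 alone, so no p-value is given. Of its 3 annotated pseudogenes only ANXA2P2 had counts, 9 in 22Rv1.

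ANXA1, the partner of S100A11, was at 1.03, 0.57 and 0.96 TPM in LNCaP NC-mimic and at 6.48, 6.44 and 41.6 TPM in 22Rv1 NC-mimic. With the mimic it was at 0.39, 0.86 and 0.69 TPM in LNCaP and at 7.85, 5.62 and 27.4 TPM in 22Rv1. As for ANXA2, replicate 3 held the highest value in both 22Rv1 groups. The difference was 4.43 ± 0.86 (log2, SE) with NC-mimic and 4.69 ± 0.75 with the mimic, and 2.94 and 3.69 without 22Rv1 replicate 3. ANXA1 had 41 pooled counts in LNCaP NC-mimic and 22 in LNCaP with the mimic. It would not have passed the filter on low counts without the 22Rv1 libraries, so no p-value is given.

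EZR (ezrin, which links the membrane to actin and binds S100P) was at 23.7 to 28.8 TPM in LNCaP and 41.7 to 67.8 TPM in 22Rv1, a log2 difference of 1.29 and 1.19 in the 2 arms. AHNAK, a large scaffold that binds the S100A10 and annexin A2 complex, was at 22.1 to 27.2 TPM in LNCaP and 29.6 to 90.0 TPM in 22Rv1, with log2 differences of 0.78 and 1.41. In CPM, the lowest 22Rv1 library for AHNAK was NC-mimic replicate 3 and the highest was mimic replicate 3. Leaving out 1 library gave AHNAK log2 differences of 0.67 to 0.96 with NC-mimic and 1.08 to 1.58 with the mimic. ANXA6, an annexin that binds S100A6, was lower in 22Rv1, at 24.2 to 51.1 TPM against 74.6 to 111 TPM in LNCaP, with log2 differences of -1.30 and -1.83. ALCAM, a cell adhesion molecule and candidate S100 receptor, was at 44.7 to 60.9 TPM in LNCaP and 59.8 to 101 TPM in 22Rv1, with log2 differences of 0.50 (edgeR adjusted p = 0.022) and 0.91. For EZR, AHNAK and ANXA6 the edgeR adjusted p was 0.0042 or less in both arms. ALCAM with NC-mimic lost its call when LNCaP NC-mimic replicate 1 or 3 or 22Rv1 NC-mimic replicate 1 or 2 was left out (edgeR adjusted p 0.051 to 0.096).

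**Figure D3:**
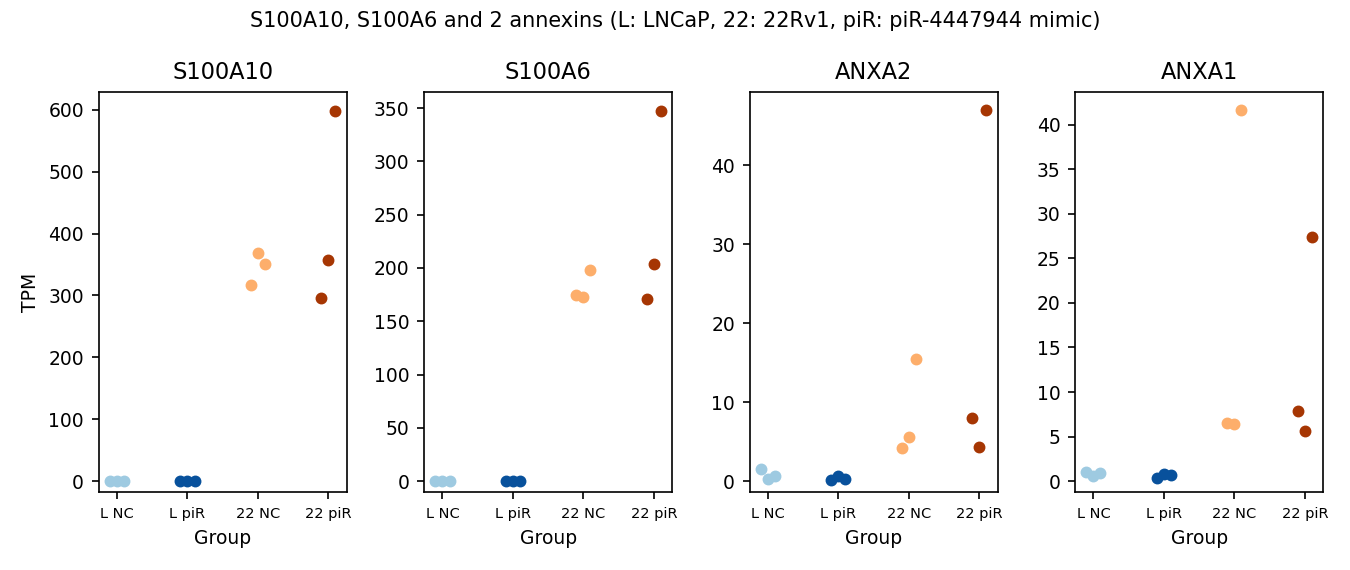
Level in TPM of S100A10, S100A6 and the annexins ANXA2 and ANXA1 in each library, with 1 point per library, replicates 1 to 3 from left to right and a separate linear axis for each gene. The LNCaP libraries lie at 0 for S100A10 and S100A6 and at 1.52 TPM or less for the annexins, and the 22Rv1 mimic library numbered 3 is the highest for S100A10, S100A6 and ANXA2.

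The mimic was then described in each line by setting its libraries beside those with NC-mimic. S100P had 98, 78 and 74 counts in LNCaP NC-mimic and 89, 128 and 90 with the mimic, and 366, 311 and 177 counts in 22Rv1 NC-mimic and 335, 351 and 476 with the mimic. In CPM with TMM scaling, which allows for library composition, these were 5.08, 3.99 and 4.50 against 6.01, 7.87 and 5.22 in LNCaP, and 16.7, 20.2 and 14.5 against 23.0, 19.6 and 31.0 in 22Rv1. In LNCaP the groups were apart by a narrow margin in CPM and overlapped in TPM (34.2 with NC-mimic and 32.7 with the mimic). In 22Rv1 they overlapped in CPM (20.2 and 19.6) and were apart by a narrow margin in TPM (126 and 130). By replicate number, S100P in 22Rv1 was higher in CPM with the mimic in replicates 1 and 3 and lower in replicate 2. The log2 difference of mimic from NC-mimic was 0.49 ± 0.21 (SE) in LNCaP, 0.51 ± 0.23 in 22Rv1 and 0.51 ± 0.15 over both lines, a 1.42-fold difference. Without replicate 3 in every group it was 0.62 in LNCaP, 0.22 in 22Rv1 and 0.38 over both lines.

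**Figure D4:**
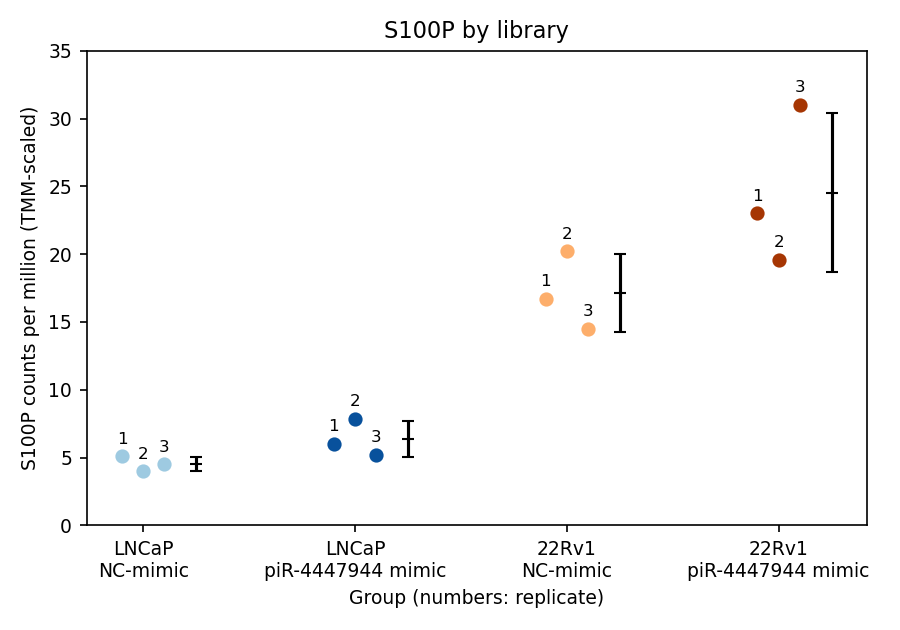
S100P in CPM with TMM scaling in each library of the 4 groups, with 1 numbered point per replicate and the mean ± SD of 3 libraries to the right of the points. LNCaP lies between 3.99 and 7.87 and 22Rv1 between 14.5 and 31.0, and the 22Rv1 mimic library numbered 3 is the highest.

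The other S100 genes are set out in the same way, without a test. In LNCaP, S100A11 was at 388 to 416 TPM with the mimic and at 457 to 471 TPM with NC-mimic, a log2 difference of -0.16 ± 0.07 (SE), while in 22Rv1 it was -0.06 ± 0.24 with overlapping groups. S100A13 differed by 0.19 ± 0.18 in LNCaP and by -0.05 ± 0.21 in 22Rv1. S100A10 differed by 0.23 ± 0.26 and S100A6 by 0.37 ± 0.30 in 22Rv1, and without 22Rv1 mimic replicate 3 by -0.13 and -0.04. S100A4 differed by -0.80 ± 0.46 in LNCaP and by -1.59 ± 0.71 over both lines, and over both lines by -0.77 without 22Rv1 NC-mimic replicate 3.

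The rule of the study for the mimic, an unadjusted p under 0.05 with an absolute log2 difference over 0.2, was met over both lines by S100P (higher) and S100A4 (lower) of the 10 genes, of which 6 were tested, beside 1.5% of all 18071 genes (271, or 408 with the replicate number as a block, where S100A4 no longer met it). In LNCaP S100P met it of 4 tested, beside 2.22% of 16244 genes, and in 22Rv1 none of 5 tested met it, beside 1.48% of 16898 genes (250, or 459 with the replicate block). S100P was chosen with this contrast, and over both lines S100A4 passed the filter on low counts through NC-mimic libraries alone. Nothing is therefore read from these counts.

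Whether the mimic effect differed between the lines was tested over all 12 libraries. For S100P the effect in 22Rv1 minus that in LNCaP was 0.03 on the log2 scale (95% interval -0.68 to 0.74; edgeR adjusted p = 1.00), and without replicate 3 in every group it was -0.40 (-1.03 to 0.23; edgeR adjusted p = 0.82). For S100A11 it was 0.11 (-0.46 to 0.68) and for S100A13 -0.24 (-0.90 to 0.42). S100A4 gave -1.85 (-4.90 to 1.19), and 0.09 without 22Rv1 NC-mimic replicate 3. No effect can be compared for S100A6 and S100A10, which had no count in LNCaP. None of the 10 genes was called, and none had an unadjusted p under 0.05. Over all 18720 genes edgeR called 0 (0.0%) at an adjusted p under 0.05, and 610 (3.26%) had an unadjusted p under 0.05, while DESeq2 called 3 and limma 2.

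The genes most like S100P in log2 CPM over the 12 libraries, among 18071 genes, were RCBTB2 (Pearson r = 0.99), IER5L (r = 0.99) and D2HGDH (r = 0.98). These values are a description. The 12 points fall into the 2 lines, which differ in S100P, and share libraries and scaling, and after centring on each line r was 0.87, 0.86 and 0.89.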

How the data were processed

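mRNA of 12 libraries was measured, 3 in each of 4 groups taken from the labels. Per the labels and methods, the authors used STAR 2.7.1a for alignment to hg38 and RSEM 1.3.0 for quantification. They deposited expected counts, which are not normalized and share out a read among all genes it fits. The deposited TPM correct for effective length and keep no information on depth. Effective lengths were deposited too. Read length, trimming and strand are not given in the sources used here.

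After rounding, edgeR 4.0.16 under R 4.3.3 was run on the expected counts (filterByExpr, TMM, glmQLFit, glmQLFTest) over all genes tested, with Benjamini-Hochberg adjustment. A gene was called at an adjusted p under 0.05. Standard errors were derived from the fold change and the F statistic. Folds against a group at 0 used a floor of 3 counts over the group. Alternatives were DESeq2 1.42.0, limma 3.58.1 on log2(TPM + 1) for genes with at least 1 TPM in 3 libraries, other scaling and filters, a replicate block, and fits without libraries. The fits were tested on simulated counts.

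Numbers were taken to pair libraries where all 3 same-numbered pairs of NC-mimic and mimic had deviations correlated above 0.1 over 18071 genes. This held in 22Rv1 (0.18, 0.15 and 0.34) and not in LNCaP, where only replicate 3 passed (0.02, 0.01 and 0.18), and it comes from the values alone. The main fits did not use this pairing in either line, so their standard errors and intervals are unpaired. Only the alternative with a replicate block used the replicate numbers. Named genes were the 10 S100 genes, the partners and receptors called in both comparisons of the lines (at most 6, those with the largest smaller log2 difference) and the 3 genes most like S100P. S100A1, FLG, HRNR, FLG2, AGER, BSG, TLR4 and ANXA2P2 fall outside this rule and were named after their values were seen. The S100 genes and all lists were chosen with earlier results of these data known. Of 60660 gene IDs, 52379 matched GENCODE v44 with their version. Some markers of the luminal list are not reported here.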

Additional observations from a re-analysis of the deposited data

How the results depend on the processing

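The calls of S100P and S100A13 between the lines held under every alternative run. S100A6 and S100A10, at 0 in LNCaP, entered the tests through 22Rv1 alone, so nothing is read from their calls. With at least 10 counts in every library only 2 genes, S100P and S100A13, were called in each comparison, since S100A6 and S100A10 could not be tested. Leaving out 1 library gave 4 to 5 called genes with NC-mimic, the fifth being S100A4, whose log2 difference ranged from -1.85 to 0.56. S100A4 was called only without 22Rv1 NC-mimic replicate 3, where it passed the filter through LNCaP alone, so nothing is read from that call. limma on log2(TPM + 1) moved the median over all genes with NC-mimic from 0.01 to -0.11. For the mimic over both lines, S100P alone met the rule of the study (1 gene in place of 2) with at least 10 counts in every library, with the replicate block and without replicate 3 in every group, and 1 to 2 genes met it when 1 library was left out. S100P was chosen with this contrast, and S100A4 passed the main filter over both lines through NC-mimic libraries alone. Nothing is therefore read from their part in these counts. S100A4 no longer met it without LNCaP NC-mimic replicate 2 or 3, LNCaP mimic replicate 2 or 3, 22Rv1 NC-mimic replicate 3, or 22Rv1 mimic replicate 1, 2 or 3. Over all genes the count of 271 became 770 without a low-count filter, 469 with DESeq2, 594 with limma, 408 with the replicate block and 478 without replicate 3. In LNCaP 0 of the S100 genes met the rule with DESeq2 and with all 12 libraries in one fit, 3 with limma, and 0 to 1 when 1 library was left out. The 0 came without replicate 2 of either arm, and without NC-mimic replicate 3 the 1 gene was S100A13. Over all genes the count of 361 became 891 without a filter, 578 with limma, 929 without replicate 3, 168 with all 12 libraries, and 284 to 1008 when 1 library was left out, the highest without NC-mimic replicate 3. In 22Rv1 the S100 genes meeting it were 1 with limma, 2 with all 12 libraries, and 0 to 1 when 1 library was left out, the 1 being S100P without replicate 2 of either arm. Over all genes the count of 250 became 532 without a filter, 438 with DESeq2, 459 with limma, 459 with the replicate block, 781 without replicate 3, 1232 with all 12 libraries, and 183 to 376 when 1 library was left out, the highest without mimic replicate 3. The replicate block changed no other call of an S100 gene. The cause of these changes was not tested. Depth limits S100A14, S100A16, S100A9 and S100A8, of which no library held more than 19 counts.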
